A study of Mus musculus with 12 samples.

Results

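The transcripts followed here are those of 8 transcription factor genes of the heart: the zinc finger factors Gata4 and Gata6, the T-box factors Tbx5 and Tbx20, the MADS-box factors Mef2a, Mef2c and Mef2d, and the basic helix-loop-helix factor Hand2. They were taken from the tables by gene symbol, with no threshold on a measured value. The deposited tables list 7 of the 8 among 15223 genes, and Hand2 is not one of the listed genes. RNA was sequenced from c-Kit(+) heart cells to ask what changes in them after a myocardial infarction (MI) and after treatment with Sfrp2, a secreted Wnt antagonist. All libraries carry the same strain label, C57BL/6 c-KitCreERT2/mTeG, and the mice, 8 weeks old, were given tamoxifen at 0.5 mg per day for 14 days so that Cre driven from c-Kit would mark the cells with eGFP. The groups were c-Kit(+) cells taken 1 day before MI (pre-MI, n = 3), 1 day after MI (n = 2), 12 days after MI with vehicle (n = 3) and 12 days after MI with Sfrp2 (n = 3), plus 1 library labelled cardiomyocytes of sham mice. Vehicle or Sfrp2 was given 2 days after MI, so the day 1 cells, although their label holds the word vehicle, were taken before that day. The labels do not say whether libraries of a group came from separate mice, so p-values measure only how far these libraries differ from each other, and that spread may be technical.

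GATA factors bind sites such as AGATAA and T-box factors sites such as TCACACC, and in the heart they act together on genes of the contractile apparatus. MEF2 factors bind a site rich in A and T, recruit class II histone deacetylases that hold their targets silent, and are set free by calcium and kinase signals. Mef2c is required for looping of the embryonic mouse heart and is also active in endothelium, while Mef2a and Mef2d are the forms best known from the postnatal heart. Gata4, Mef2c and Tbx5 together are the set widely used to reprogram mouse fibroblasts towards cardiomyocytes.

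The MEF2 genes carry most of what follows, so their sequences are shown first. They encode closely related N-termini, the MADS box, and their coding starts are given because reads from near-identical copies could be lost or shared between genes. The first 174 coding bases are from GENCODE transcripts on GRCm38, 5′ to 3′ on the coding strand, and capitals mark bases that differ from Mef2a.
Mef2a: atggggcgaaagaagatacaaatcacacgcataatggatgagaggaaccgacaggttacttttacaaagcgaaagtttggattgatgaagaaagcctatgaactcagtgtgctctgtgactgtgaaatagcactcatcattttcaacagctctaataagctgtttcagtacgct
Mef2c: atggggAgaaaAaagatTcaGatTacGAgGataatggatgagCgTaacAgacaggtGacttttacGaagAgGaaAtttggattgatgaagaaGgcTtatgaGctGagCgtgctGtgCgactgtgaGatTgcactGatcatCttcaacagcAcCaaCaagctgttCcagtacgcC
Mef2d: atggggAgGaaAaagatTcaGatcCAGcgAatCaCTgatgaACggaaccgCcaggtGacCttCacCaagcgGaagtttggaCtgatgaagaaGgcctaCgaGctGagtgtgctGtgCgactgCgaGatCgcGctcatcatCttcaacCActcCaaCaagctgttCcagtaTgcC
Mef2c differed from Mef2a at 32 of these bases and Mef2d at 39, which leaves identities of 81.6% and 77.6%. Over the complete coding sequences the longest identical run was 17 bases between Mef2a and Mef2c, 13 between Mef2a and Mef2d, and 28 between Mef2c and Mef2d. Reads of 20 nt or more were kept by the authors and only where they mapped to 1 place, so of the 3 pairs only Mef2c and Mef2d share a coding run as long as the shortest kept reads.

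The 3 MEF2 genes were also the members that fell together in 1 comparison, and the windows around their starts, from 250 bases before to 50 after, are shown from RefSeq (GRCm38.p6), which has an entry for 5 of the 8 members. Capitals mark matches, on either strand, to the GATA motif AGATAA, the T-box motif TCACACC, the GC box GGGCGG, the TATA box TATAAA, the MEF2 consensus or the CArG box bound by serum response factor.
Mef2a, chr7:67372809-67373108, minus strand: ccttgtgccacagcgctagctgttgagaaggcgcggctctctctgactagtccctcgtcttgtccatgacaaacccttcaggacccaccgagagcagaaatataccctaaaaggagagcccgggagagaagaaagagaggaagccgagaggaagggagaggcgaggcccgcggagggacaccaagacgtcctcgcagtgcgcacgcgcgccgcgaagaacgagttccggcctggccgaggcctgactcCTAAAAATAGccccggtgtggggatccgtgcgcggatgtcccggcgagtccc
Mef2c, first of 3 entries, chr13:83503784-83504083, plus strand: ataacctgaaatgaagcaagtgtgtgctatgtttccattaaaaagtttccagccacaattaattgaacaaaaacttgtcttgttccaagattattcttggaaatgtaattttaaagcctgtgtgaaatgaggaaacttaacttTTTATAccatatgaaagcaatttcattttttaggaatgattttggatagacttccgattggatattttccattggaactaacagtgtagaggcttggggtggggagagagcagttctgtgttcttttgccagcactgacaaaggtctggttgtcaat
Mef2d, chr3:88142122-88142421, plus strand: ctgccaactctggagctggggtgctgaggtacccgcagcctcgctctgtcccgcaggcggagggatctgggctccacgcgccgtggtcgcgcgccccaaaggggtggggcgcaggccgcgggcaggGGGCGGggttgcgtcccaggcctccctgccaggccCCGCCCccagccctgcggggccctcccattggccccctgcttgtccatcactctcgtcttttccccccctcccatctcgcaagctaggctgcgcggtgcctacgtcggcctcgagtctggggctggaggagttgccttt
The Mef2a window held 1 match to the MEF2 consensus, which 0.557% of 32851 RefSeq windows of this length hold. The Mef2d window held 2 GC boxes, a motif found in 35.7% of windows, and the Mef2c window held 1 TATA box, found in 13.6%. None of these matches overlapped another. AGATAA and TCACACC were not among the letters of the 3 windows (11.2% and 3.98% of all windows hold them). G and C made up 62.3%, 35.7% and 72% of the Mef2a, Mef2c and Mef2d windows, against a median of 52.7% over all windows. The Mef2c entry starting at chr13:83523406, not shown, held 1 GC box and 1 TATA box, with G and C at 47%. The Mef2c entry starting at chr13:83573357, also not shown, held no match, with G and C at 48.3%. The matches describe letters only.

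Values are normalized counts, that is reads per gene divided by a size factor of the library, as the authors deposited them. Recovered whole reads summed to 190259 to 3570993 per library over the listed genes, and to 97858 to 618599 outside mitochondrial genes, which is the depth behind these factors. Mitochondrial rRNA took 82.6% to 86.7% of reads pre-MI, 52.9% to 79.1% in the other c-Kit(+) libraries but 1, and 2.01% in day 12 vehicle replicate 3. That library and the library labelled cardiomyocytes, at 1.08%, stand apart. Genes listed at 0 made up 33.9% to 42.1% pre-MI and 0.191% to 15.2% in the c-Kit(+) libraries after MI. The label gene Kit had reads in every c-Kit(+) library (3.44 to 33.7) and none in the library labelled cardiomyocytes. That library goes against its label: its 8 cardiomyocyte markers summed to 261, below the 2132 to 3634 of the pre-MI c-Kit(+) libraries, with Myh6, cardiac myosin heavy chain, at 4.43 and phospholamban (Pln) at 0. Endothelial markers were abundant in the pre-MI c-Kit(+) libraries, where 8 of them summed to 3553 to 3613.

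**Figure D1:**
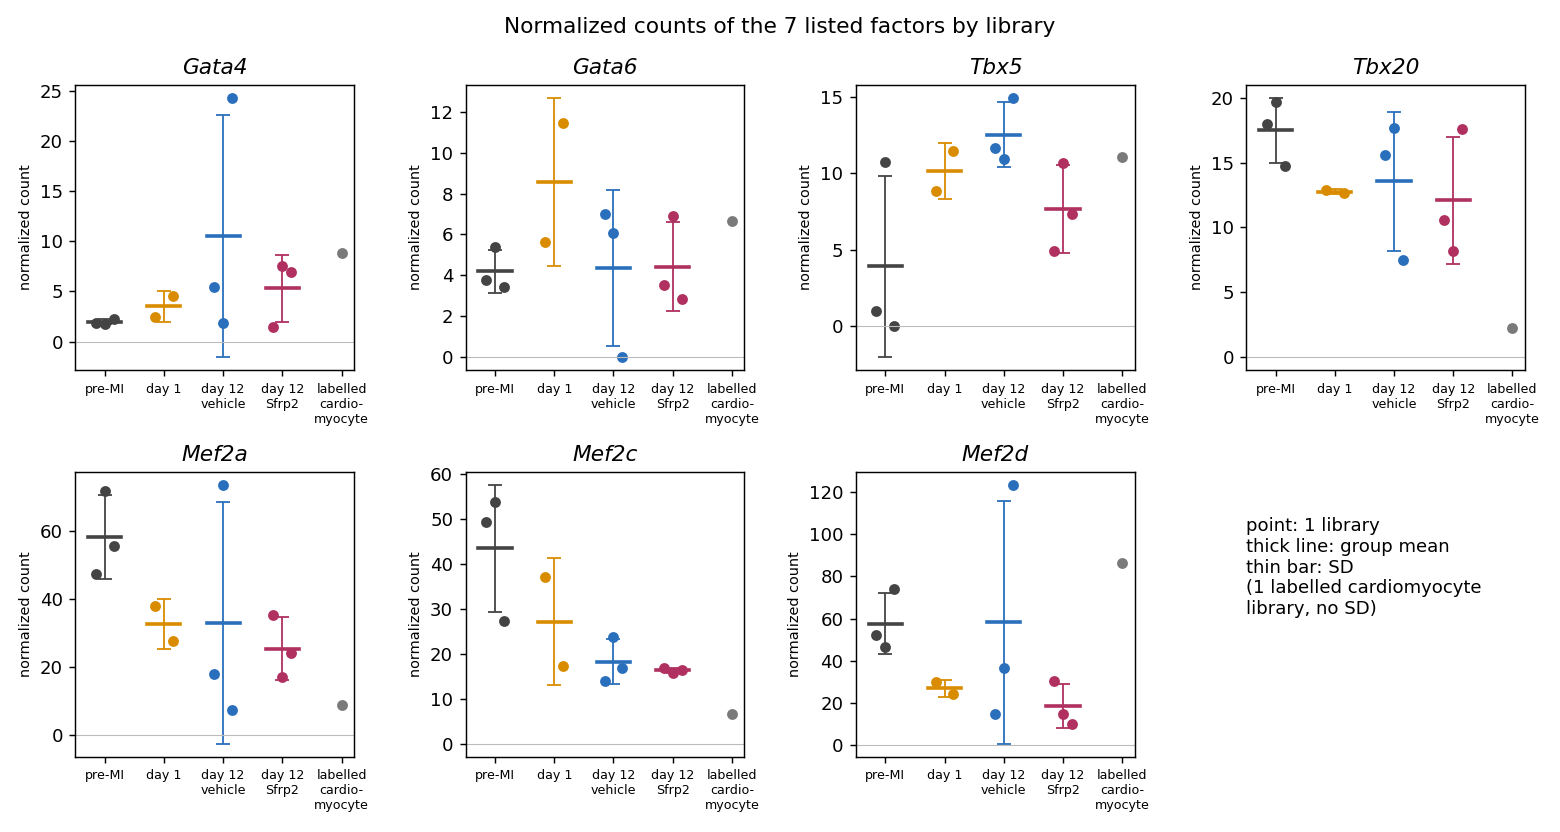
Normalized count (y axis) of each listed factor by group (x axis); each point is 1 library, the thick line the group mean and the thin bar the SD. The 3 MEF2 genes are lower in all Sfrp2 libraries than in any pre-MI library, while Gata4, Gata6 and Tbx5 stay under 25 in every library. The share of all genes separated in this way was not computed.

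By mean over the 11 c-Kit(+) libraries the MEF2 genes had the highest normalized counts of the listed members, 41.5 for Mef2d, 37.8 for Mef2a and 26.2 for Mef2c, against 14.1 or less for the others. Single libraries depart from this order, such as day 12 vehicle replicate 3, where Gata4 at 24.3 exceeded Mef2a and Mef2c. Per kb of exon, the scale on which genes can be compared, Mef2d (chr3:88142372-88172086, plus strand, GRCm38) led before MI, at 9.61 ± 2.41 (SD, n = 3). Mef2a (chr7:67231163-67372858, minus strand) followed at 3.97 ± 0.845 and Mef2c (chr13:83504034-83667080, plus strand) at 2.76 ± 0.902 per exon kb. Mef2d lay above every value of the other 2, which overlapped each other. Tbx20 (chr9:24718138-24774303, minus strand) came next at 1.46 ± 0.209 per exon kb, below all Mef2c values. Tbx5 (chr5:119832668-119885219, plus strand) at 0.834 ± 1.27, Gata6 (chr18:11052064-11085635, plus strand) at 0.644 ± 0.161 and Gata4 (chr14:63198922-63271692, minus strand) at 0.509 ± 0.0647 per exon kb could not be ordered, since each overlapped the next. At day 12 with Sfrp2 the order per exon kb was Mef2d (3.09 ± 1.75), Mef2a (1.73 ± 0.627), Tbx5 (1.64 ± 0.617), Gata4 (1.36 ± 0.866), Mef2c (1.04 ± 0.0385), Tbx20 (1.01 ± 0.408) and Gata6 (0.681 ± 0.333), and every pair of neighbours in it overlapped.

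At 12 days after MI with Sfrp2, all 3 listed MEF2 genes had fallen against pre-MI, and none of the 4 GATA and TBX members passed the test. The test was limma on log2(value + 1), with Benjamini-Hochberg adjustment over all 15223 genes and a threshold of 0.05, and differences below are on that log2 scale. The 3 of 7 members called, each lower, stand against 57.6% of all genes called in this comparison, 8.82% lower and 48.8% higher. Where genes averaged at least 10, 30.8% were called lower and 11.8% higher. The members' median difference was -0.55, against 1.27 over all genes and -0.49 over genes averaging at least 10. In bulk RNA, fewer cells of a type and less RNA per cell cannot be told apart.

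Mef2d was at 52.0, 46.6 and 73.8 in the pre-MI libraries and at 30.3, 15.1 and 10.2 with Sfrp2. All 3 Sfrp2 values lay below the lowest pre-MI value. The difference was -1.69 (SE 0.409, 95% interval -2.63 to -0.75, limma adjusted p = 0.00774), or 3.22-fold. Without Sfrp2 replicate 2 it was -1.61 with an adjusted p of 0.0524, past the threshold no longer; it was called in 14 of 15 alternatives.

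Mef2c was at 49.2, 53.8 and 27.3 pre-MI and at 16.9, 15.7 and 16.4 with Sfrp2. The Sfrp2 values were almost level, and pre-MI replicate 3 was the lowest of its group while still above all of them. Mef2c fell by 1.30 (SE 0.322, 95% interval -2.04 to -0.56, limma adjusted p = 0.00854), or 2.47-fold, and was called in 15 of 15 alternatives.

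Mef2a was at 47.3, 71.7 and 55.7 pre-MI and at 35.2, 16.9 and 24.1 with Sfrp2. The groups did not overlap. The share of all genes whose groups do not overlap was not computed, here or in the other comparisons. Its difference was -1.20 (SE 0.333, 95% interval -1.97 to -0.44, limma adjusted p = 0.0142), or 2.30-fold. It was called in 13 of 15 alternatives, with an adjusted p of 0.0591 without Sfrp2 replicate 3 and of 0.115 in a fit of all 11 c-Kit(+) libraries. In the authors' deposited table, which rests on their own DESeq2 fit, the log2 fold changes were -1.65 for Mef2d, -1.41 for Mef2c and -1.19 for Mef2a, with adjusted p of 0.0537, 0.0334 and 0.151.

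Some genes overlap the exons of members, and strand of counting is not stated in the sources used here. Mef2d shares exon bases with the antisense gene 1700113A16Rik, listed as AC137525.1, which was at 7.17 to 13.6 pre-MI and at 12.7, 1.26 and 3.68 with Sfrp2. Reads of this pair cannot be told apart without strand, so Mef2d values are uncertain to that extent. Mef2a shares exon bases with Lysmd4, at 0 to 1.89 pre-MI and 1.41 to 6.95 with Sfrp2, and Gata6 with 1010001N08Rik, listed as AC130654.1, at 0 to 4.39 in the c-Kit(+) libraries.

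**Figure D2:**
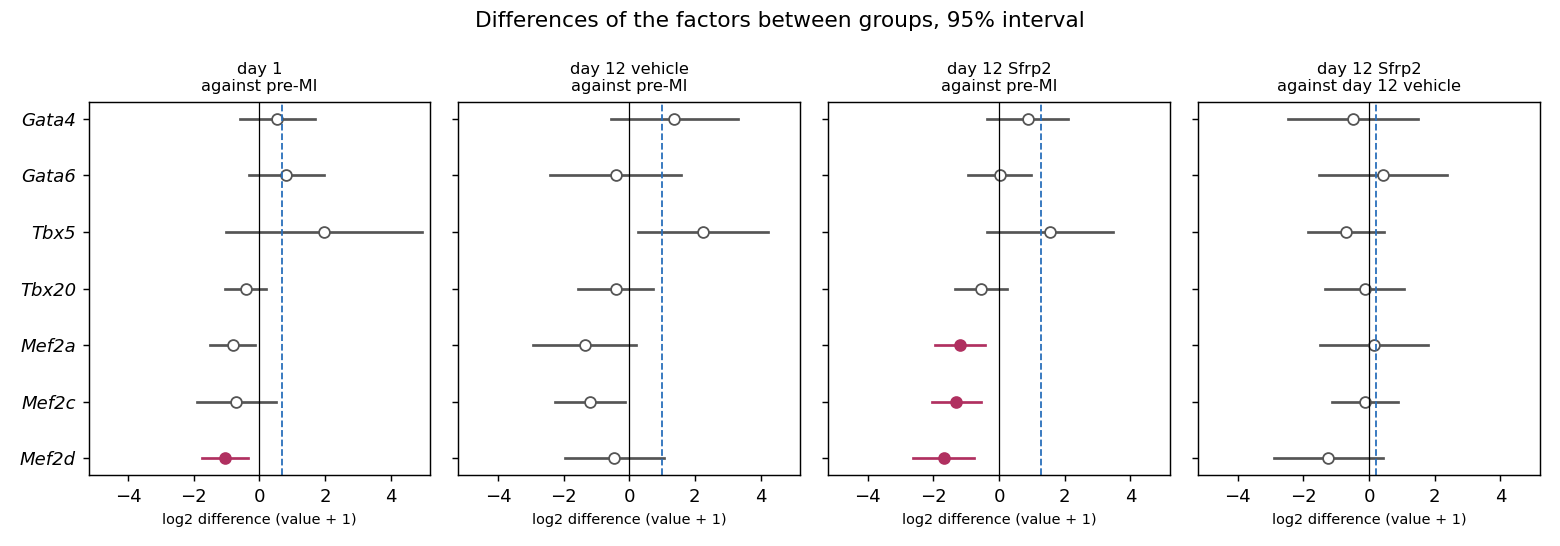
Log2 difference of value + 1 (x axis, limma, with 95% interval) for each factor (y axis) in 4 comparisons; filled points passed an adjusted p of 0.05 and the dashed line is the median of all 15223 genes. Mef2a, Mef2c and Mef2d are filled for day 12 Sfrp2 against pre-MI, Mef2d alone for day 1 against pre-MI, and none in the other panels.

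Markers of other cell types moved in the same comparison. There 8.82% of all genes were called lower and 48.8% higher, or 30.8% and 11.8% of those averaging at least 10. The marker values were not set against the level of background reads described further below. All 8 endothelial markers fell, from sums of 3553 to 3613 pre-MI to 308 to 843 with Sfrp2, with none of the 8 at 0 in any of these libraries. Of 8 cardiomyocyte markers 7 fell, from sums of 2132 to 3634 to 349 to 477, again with none at 0. Of the 7 listed macrophage markers 6 rose, from sums of 9.09 to 23.3, with 2 to 5 of them at 0, to sums of 135 to 167 with none at 0. Of 5 listed erythroid markers 4 fell, from sums of 635 to 3992 to 178 to 411, none at 0. Of 7 smooth muscle and pericyte markers 3 fell and 2 rose, with sums of 491 to 695 pre-MI (1 or 2 at 0) and 93.5 to 147 with Sfrp2 (none at 0). Mesothelial markers rose in 6 of 7, from sums of 23.7 to 28.4 (4 or 5 at 0) to 56.3 to 76.5, lymphocyte markers in 6 of 7, from 3.41 to 7.17 (4 or 5 at 0) to 33.5 to 160, and fibroblast markers in 4 of 7, from 118 to 169 to 288 to 334, with none at 0 with Sfrp2. Of the mesothelial sums pre-MI, Wt1 alone made up 20.8 to 27.3. Genes were listed only where some library had at least 10 reads. Ccr2, Fcgr1, Aldh1a2, Krt19, Upk1b, Il7r and Ms4a1 had 0 reads in all pre-MI libraries. Such markers were listed through other libraries, and that filter favours a rise. The part of the marker changes in the MEF2 differences was not tested.

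The GATA factors rested on few reads. Genes were listed only where some library had at least 10 reads, and Gata4 and Gata6 had at most 2 and 4 in a pre-MI library. Both were thus listed through libraries other than pre-MI, and that filter favours a higher value after MI. Gata4 had 2, 1 and 2 reads pre-MI, at 1.89, 1.79 and 2.27 normalized counts, and was at 1.41, 7.53 and 6.95 with Sfrp2. Sfrp2 replicate 1 lay below the pre-MI libraries and the other 2 above them. The difference of 0.88 (SE 0.537, 95% interval -0.36 to 2.11) had a limma adjusted p of 0.191. Without Sfrp2 replicate 1 it was 1.47 with an adjusted p of 0.0128, and in a fit with each library's own median log2 value subtracted first (median centring) it was -0.59.

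Gata6 was at 3.78, 5.38 and 3.41 pre-MI, from 3 or 4 reads per library, and at 3.52, 6.91 and 2.86 with Sfrp2. The groups overlapped fully, with a difference of 0.01 (SE 0.417, 95% interval -0.94 to 0.97, limma adjusted p = 0.982). After median centring the difference was -1.46 and passed the threshold, so no direction is given for Gata6.

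Of the T-box factors, Tbx5, mutated in Holt-Oram syndrome in humans, was at 0.946, 10.8 and 0 pre-MI, from 1, 6 and 0 reads. It too was listed through libraries other than pre-MI, and the filter of at least 10 reads in some library favours a higher value after MI. In pre-MI replicate 3, 0 reads allow a value of up to 3.41 (3 reads, counting error only). With Sfrp2 it was at 4.93, 10.7 and 7.36, inside the range set by pre-MI replicate 2. The difference was 1.55 (SE 0.836, 95% interval -0.36 to 3.47, limma adjusted p = 0.141). Without pre-MI replicate 2 it was 2.58 with an adjusted p of 0.00345.

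Tbx20, a regulator that keeps adult mouse cardiomyocytes working, had the narrowest range in fold terms over the 11 c-Kit(+) libraries, 7.48 to 19.7. It was at 17.98, 19.7 and 14.8 pre-MI and at 10.6, 8.16 and 17.6 with Sfrp2. Sfrp2 replicate 3 reached into the pre-MI range, and the difference of -0.55 (SE 0.349, 95% interval -1.35 to 0.25) had a limma adjusted p of 0.203. After median centring the difference was -2.02 with an adjusted p of 0.00381.

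One day after MI, before the stated treatment day, Mef2d was the 1 member of 7 past the threshold, where 23.9% of all genes passed. The share called lower was 2.65% and higher 21.3%, and for genes averaging at least 10 it was 11.6% and 4.25%. Mef2d was at 29.8 and 24.1 in the day 1 libraries, both below the lowest pre-MI value of 46.6. The difference was -1.04 (SE 0.265, 95% interval -1.74 to -0.35, limma adjusted p = 0.0499), or 2.06-fold. The call is at the edge of the threshold. Leaving out any 1 of the 5 libraries gave an adjusted p of 0.0757 to 0.243, and DESeq2 on the recovered reads gave 0.0711. In the authors' deposited table the log2 fold change was -1.09 with an adjusted p of 0.402. 

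The other MEF2 genes did not pass at day 1. Mef2a was at 37.9 and 27.5, below all pre-MI values, with a difference of -0.81 (SE 0.264, limma adjusted p = 0.0943). Mef2c was at 37.1 and 17.2, and the first of these lay inside the pre-MI range. Its difference was -0.70 (SE 0.466, limma adjusted p = 0.329).

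Tbx20 was at 12.9 and 12.6 at day 1, just under the lowest pre-MI value of 14.8, with a difference of -0.42 (SE 0.237, limma adjusted p = 0.287). Gata4 at 2.42 and 4.59 and Gata6 at 5.65 and 11.5 both lay above all their pre-MI values, from 3 to 10 reads per library. Their differences were 0.55 (SE 0.437) and 0.83 (SE 0.443), against 0.70 over all genes, with limma adjusted p of 0.405 and 0.260. Both turned negative after median centring, at -0.52 and -0.24. Tbx5 at 8.87 and 11.5 overlapped pre-MI replicate 2, with a difference of 1.97 (SE 1.14, limma adjusted p = 0.288). Gata4, Gata6 and Tbx5 each had fewer than 10 reads in every pre-MI library. The listing filter of at least 10 reads in some library thus favours their higher values here.

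At day 1, 2.65% of all genes were called lower and 21.3% higher, or 11.6% and 4.25% of those averaging at least 10. Among the markers, 7 of 8 endothelial ones fell, to sums of 1066 to 1565, and 6 of 8 cardiomyocyte markers fell, to sums of 547 to 715. Of 7 listed macrophage markers 5 rose, to sums of 275 to 428. Among the macrophage markers, Ccr2 had 0 reads in all pre-MI libraries and Itgam had 2, 0 and 0. The filter of at least 10 reads in some library favours such rises. The part of the marker changes in the Mef2d difference was not tested.

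At 12 days after MI with vehicle, 0 of 7 members and 0 of 15223 genes (0%) passed against pre-MI by limma, with 2 members and 5150 genes at an unadjusted p under 0.05. edgeR and DESeq2, which called 1907 and 1075 genes, also called 0 members. A weight per library called 3 members lower, Mef2a (-1.60, limma adjusted p = 0.00697), Mef2c (-1.51, adjusted p = 0.00717) and Mef2d (-1.43, adjusted p = 0.0281), among 8282 genes. The vehicle libraries spread widely. Mef2d was at 14.8, 36.5 and 123, so that replicate 3 lay above and the other 2 below all pre-MI libraries. Mef2a was at 17.9, 73.7 and 7.48, with replicate 2 as high as pre-MI and the others below. Mef2c was at 14.0, 23.7 and 16.8, under every pre-MI value.

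The difference from pre-MI was -1.18 for Mef2c (SE 0.482, 95% interval -2.25 to -0.12, limma adjusted p = 0.127). For Mef2a it was -1.35 (SE 0.709, 95% interval -2.92 to 0.22, adjusted p = 0.188) and for Mef2d -0.45 (SE 0.683, 95% interval -1.96 to 1.06, adjusted p = 0.639). Vehicle replicate 2 decided 2 of these calls. Without it Mef2a was at -2.21 (limma adjusted p = 0.0185) and Mef2c at -1.38 (adjusted p = 0.0490). Without replicate 3, the library with little mitochondrial rRNA, 0 members passed and Mef2d was at -1.24. Without replicate 1, Mef2d was at 0.25.

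Among the GATA and TBX members with vehicle, Tbx5 was at 11.7, 10.96 and 14.96, all above the highest pre-MI value of 10.8. Its difference was 2.24 (SE 0.894, 95% interval 0.26 to 4.22, limma adjusted p = 0.122), and the adjusted p was 0.0320 in a fit of all 11 libraries. Tbx5 and Gata4 had fewer than 10 reads in every pre-MI library. The filter of at least 10 reads in some library thus favours a rise of both. Gata4 was at 5.45, 1.83 and 24.3, the last from 13 reads of replicate 3, with a difference of 1.38 (SE 0.871, adjusted p = 0.264). Without that library the Gata4 difference was 0.52. Gata6 was at 7.01, 6.09 and 0, where 0 reads allow up to 5.61, and Tbx20 at 15.6, 17.7 and 7.48. Their differences were -0.41 for each (SE 0.906 and 0.518, limma adjusted p = 0.749 and 0.567), and that of Gata6 was 0.56 without replicate 3. In the authors' deposited table the adjusted p of the 7 members against pre-MI ranged from 0.0681 for Mef2c to 0.991 for Mef2d.

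Whether Sfrp2 and vehicle differ at day 12 was tested directly, and 0 of 7 members and 0 of 15223 genes (0%) passed by limma, with 0 members and 219 genes at an unadjusted p under 0.05. edgeR and DESeq2 also called 0 members and 0 genes. A weight per library called 0 members but 2185 genes. The largest member difference was that of Mef2d, -1.24 (SE 0.740, 95% interval -2.89 to 0.42, limma adjusted p = 1.00), and without vehicle replicate 3 it was -0.45. Mef2c differed by -0.12 (95% interval -1.13 to 0.89) and Mef2a by 0.15 (95% interval -1.50 to 1.80). These intervals are wide, and the missed threshold does not show that the treatments act alike. Tbx5 was lower in all 3 Sfrp2 libraries than in any vehicle library, with a difference of -0.69 (95% interval -1.85 to 0.47). The share of all genes separated in this way was not computed, so the separation is not read as a result about Tbx5. Tbx20 differed by -0.14 (-1.35 to 1.08), Gata4 by -0.50 (-2.48 to 1.48) and Gata6 by 0.43 (-1.53 to 2.39). The Mef2d log2 fold change in the authors' deposited table was -1.63 (p = 0.0197, adjusted p = 1). The comparisons of day 1, vehicle and Sfrp2 with pre-MI share the 3 pre-MI libraries.

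Within the MEF2 family, the share of each gene in the summed level per exon kb was computed as a description, with no test. Before MI the sum was 15.05 to 17.9 per exon kb and Mef2d took 48.4% to 69.1% of it, Mef2a 21.2% to 30.3% and Mef2c 9.71% to 21.3%. With Sfrp2 the sum was 4.39 to 8.53 per exon kb, and the Mef2d share of 38.9% to 59.3% overlapped that of pre-MI. Mef2a took 24.7% to 37.4% and Mef2c 12.6% to 23.7%, with Mef2a above its pre-MI range in replicate 3 and Mef2c in replicates 2 and 3. At day 1 the sum was 9.93 and 6.999 with a Mef2d share of 50.2% and 57.5%, and Mef2c at 23.8% and 15.7%. Vehicle replicates 1 and 2 held 53.9% and 48.3% of Mef2d, and replicate 3 held 92.9%. Mef2a reached 39.7% in vehicle replicate 2 and was at 2.29% in replicate 3.

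**Figure D3:**
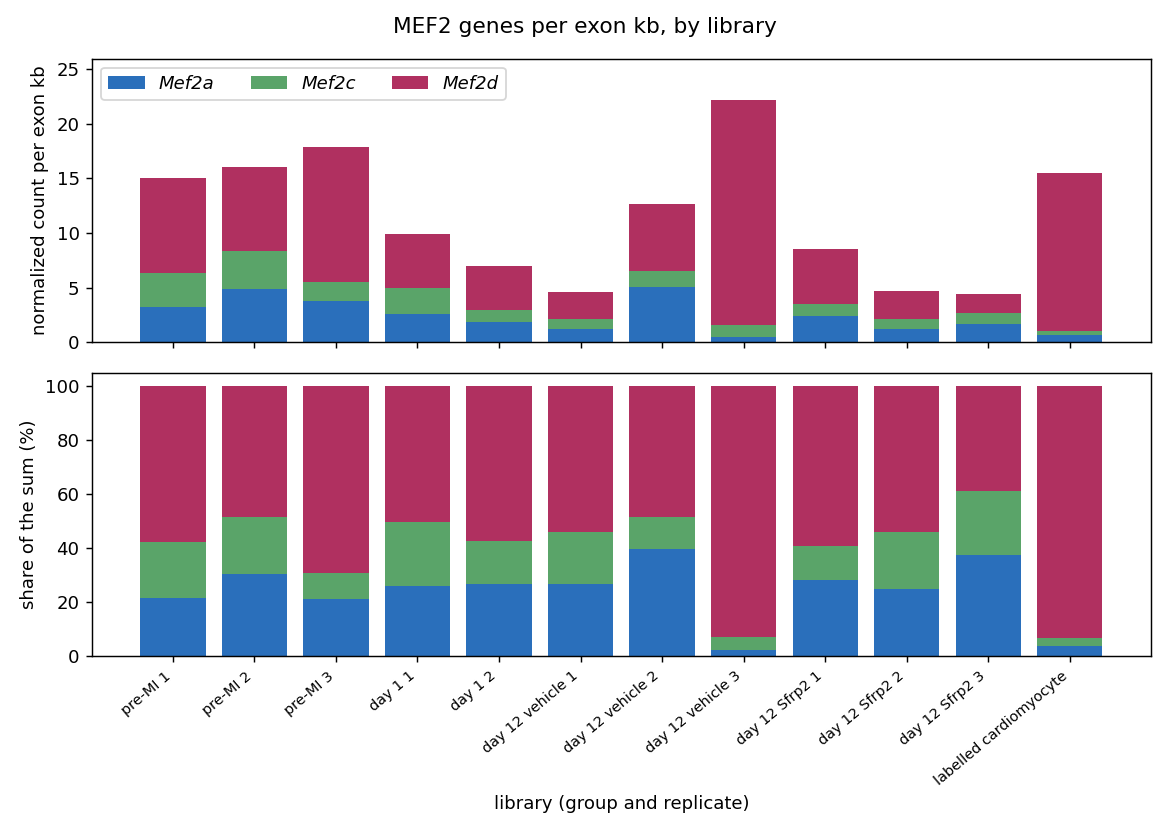
Summed normalized count per exon kb of Mef2a, Mef2c and Mef2d (top, y axis) and each gene's share of that sum in percent (bottom, y axis) in the 12 libraries (x axis). Mef2d takes 38.9% to 69.1% in 10 libraries and over 92% in day 12 vehicle replicate 3 and the library labelled cardiomyocytes.

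The library labelled cardiomyocytes, with no replicate and no test, held Mef2d at 86.4 (39 reads, exact Poisson 95% interval 61.4 to 118), above all pre-MI values. Mef2a was at 8.86 (4 reads, interval 2.41 to 22.7) and Mef2c at 6.64 (3 reads, interval 1.37 to 19.4), both below all pre-MI values. Mef2d took 93.4% of its MEF2 sum. Tbx20 was at 2.21 from 1 read (interval 0.0561 to 12.3), below every c-Kit(+) library. Tbx5 was at 11.1, Gata4 at 8.86 and Gata6 at 6.64, from 5, 4 and 3 reads. The intervals cover counting error only.

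Genes of olfactory, vomeronasal and taste receptors, which serve sensory neurons, were used as a level of background reads, in normalized counts per exon kb. Their 95th percentile (99 genes) was 0 to 0.0188 in the pre-MI libraries and 0.529 to 17.4 in the 8 libraries after MI. Genes were listed only where some library had at least 10 reads, and these 99 together had 6 to 10 reads in each pre-MI library. After MI they had 72 to 777 reads per library. Nearly all were thus listed through libraries other than pre-MI, which favours a higher level after MI. All members with reads pre-MI lay above the level of their library. That was fixed in advance, since at 0 to 0.0188 even 1 read of any member exceeds the level. After MI, Mef2d lay above it in 5 of 8 libraries, Mef2a and Tbx5 in 3 each, Mef2c in 2, and Tbx20 and Gata6 in 1 each. Gata4 lay above it in 0 of 8. Vehicle replicate 2, where the level was lowest, was above it for every listed member but Gata4. In the Sfrp2 libraries only Mef2a and Mef2d of replicate 1 exceeded the level, 1.55 to 2.68 there, and every other Sfrp2 value of a member was at or below it. The part of such reads in the member differences was not tested.

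**Figure D4:**
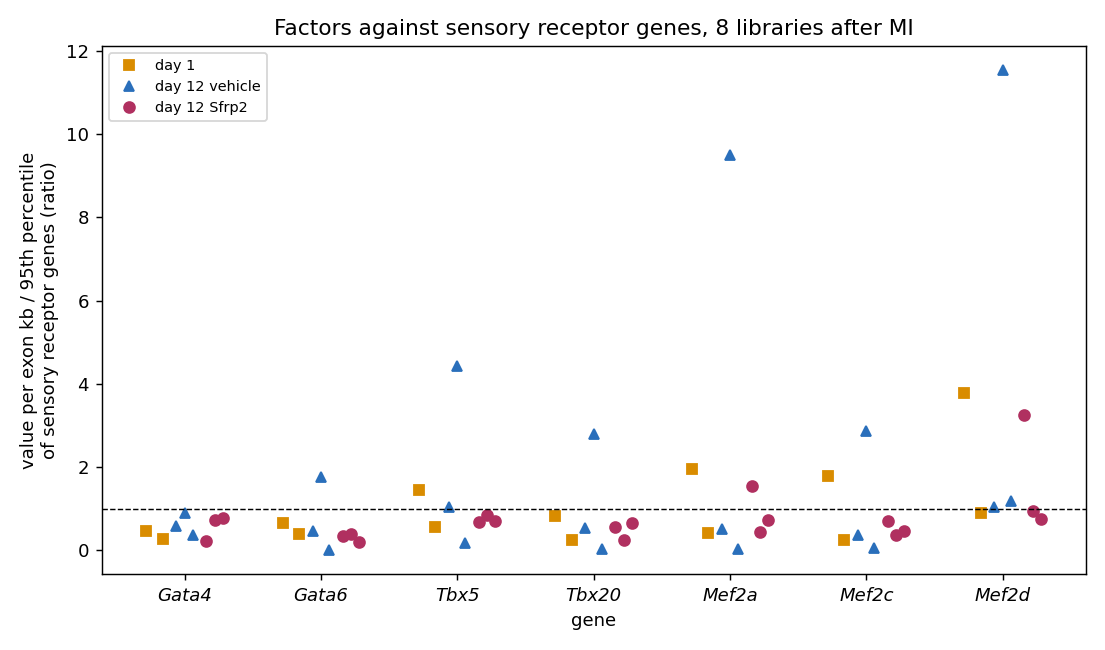
Ratio of each factor's normalized count per exon kb to the 95th percentile of 99 sensory receptor genes in the same library (y axis), for the 7 factors (x axis) in the 8 c-Kit(+) libraries after MI; the dashed line marks a ratio of 1. Gata4 lies under the line in all 8 libraries and Mef2d above it in 5.

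Relatives of the members were described as lists. Among the other GATA genes 3 of 4 were listed. Gata5, a heart and endoderm factor, rose with Sfrp2, from 0.598 to 6.88 (difference 2.39, SE 0.544, limma adjusted p = 0.00586). Gata2, a factor of blood and endothelium, was at 18.4 pre-MI and 5.71 with Sfrp2 (-1.25, SE 0.567, adjusted p = 0.0895), and Gata3 at 6.08 and 16.3 (adjusted p = 0.120), the latter from 31.7, 7.53 and 9.81, with replicate 1 far above the others. Of 11 listed other T-box genes 8 rose with Sfrp2 and 4 at day 1, and none fell, where 48.8% and 21.3% of all genes were called higher. With Sfrp2, Tbx18, an epicardial factor in the mouse, was at 8.26 against 0.315. Tbx22, Eomes and Tbx4 were at 4.71, 5.14 and 5.43, each with 0 reads in all pre-MI libraries. Hand1, the relative of Hand2, also had 0 reads pre-MI and was at 2.11 to 4.09 with Sfrp2 (limma adjusted p = 0.000584). Genes were listed only where some library had at least 10 reads. The 8 T-box genes that rose, Gata5 and Hand1 had fewer than 10 reads in every pre-MI library. They were thus listed through libraries other than pre-MI, and that filter favours a rise, also in the count of T-box genes. Mef2b is not among the listed genes. Per exon kb, Tbx22, Eomes, Tbx4 and Hand1 lay under the sensory receptor level in every Sfrp2 library, and so did 4 of the 8 T-box genes that rose. The other 4, Tbx18 among them, and Gata5 exceeded it in 1 Sfrp2 library each, and the 4 that rose at day 1 exceeded it in none. The part of background reads in these rises was not tested.

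Of 28 cofactors and partner factors 21 were listed (Nkx2-5 is not one of them), and with Sfrp2 10 fell, 3 rose and 8 did not pass, beside 8.82% of all genes called lower (30.8% of those averaging at least 10) and 48.8% higher. Their median difference was -0.55, close to that of the members and to the -0.49 over all genes averaging at least 10. Crebbp, a histone acetyltransferase that coactivates GATA4 and MEF2, fell from 61.4 to 21.1 (-1.47, SE 0.319, limma adjusted p = 0.00456). Hey1, a Notch target that represses GATA4, fell from 22.3 to 4.58 (-2.06, SE 0.419, adjusted p = 0.00341). Nfatc2, a calcineurin-responsive factor, and Isl1, a factor of the second heart field, rose to 15.8 and 4.89 from 0 reads in all pre-MI libraries, but stayed under the sensory receptor level per exon kb in all Sfrp2 libraries. All 3 that rose with Sfrp2 were listed through libraries other than pre-MI, so the filter of at least 10 reads in some library favours their rise. At day 1, 2 of 21 fell and 2 rose, where 2.65% of all genes were called lower (11.6% of those averaging at least 10) and 21.3% higher. Srf, serum response factor, fell from 31.5 to 12.2 (-1.30, SE 0.211, adjusted p = 0.0145) and Tcf3, a dimer partner of HAND factors, from 18.8 to 6.50 (adjusted p = 0.0215). Nfatc2 and Isl1 rose there too, again under the sensory receptor level. With vehicle 0 of 21 passed by limma, with 6 at an unadjusted p under 0.05.

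All 10 regulators of MEF2 were listed, and with Sfrp2 2 fell and 1 rose, beside 8.82% of all genes called lower (30.8% of those averaging at least 10) and 48.8% higher. Hdac9, a class II deacetylase that represses MEF2 targets, fell from 25.7 to 6.72 (-1.85, SE 0.347, limma adjusted p = 0.00225). It was at 4.93, 5.02 and 10.2 with Sfrp2, below its 23.3 to 27.3 pre-MI. Ppp3ca, a catalytic subunit of calcineurin, fell from 36.6 to 15.7 (-1.18, SE 0.278, adjusted p = 0.00698). Hdac4 rose from 1.61 to 7.04 (1.59, SE 0.400, adjusted p = 0.0094), under the sensory receptor level in each Sfrp2 library. It had 2, 1 and 1 reads pre-MI, so the filter of at least 10 reads in some library favours its rise. Hdac7, the form enriched in endothelium, was at 118 to 157 pre-MI and at 140, 21.97 and 47.4 with Sfrp2 (adjusted p = 0.0768), so that replicate 1 alone lay in the pre-MI range. By limma 0 of the 10 passed at day 1 and 0 with vehicle, with 1 and 2 at an unadjusted p under 0.05. Hdac9 was at 11.3 and 21.8 at day 1 and at 4.26 to 6.23 with vehicle.

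Of 20 cardiac target genes 18 were listed. With Sfrp2 11 fell and 3 rose, beside 8.82% of all genes called lower and 48.8% higher (30.8% and 11.8% of those averaging at least 10). At day 1 10 fell and 1 rose, beside 2.65% of all genes called lower and 21.3% higher (11.6% and 4.25% of those averaging at least 10). Myh6 fell in both, with differences of -4.37 with Sfrp2 (SE 0.302) and -2.89 at day 1 (SE 0.330). Actc1, cardiac actin, fell in both too, with -4.01 and -2.93, and Tnnt2, cardiac troponin T, fell with Sfrp2 with a difference of -4.40 (SE 0.486). The list's median was -2.11 with Sfrp2 and -1.09 at day 1, both below the members' medians of -0.55 and -0.42. With vehicle 0 of 18 passed by limma, with 13 at an unadjusted p under 0.05 and a median of -2.05.

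Genes whose values followed a member most closely over the 11 c-Kit(+) libraries were sought among 4305 genes averaging at least 10, by the root mean square (RMS) difference of log2(value + 1) after centring each gene. For Mef2c they were Prex2 (0.24), Adcy4 (0.24) and Sike1 (0.25), where the median gene was at 0.88. For Mef2a they were Arih1 (0.22), Tgfbr2 (0.23) and Fam117b (0.25), and for Tbx20 Dennd6a (0.20), Gab1 (0.21) and Dennd5b (0.25). Mef2d had no neighbour as near, with Fam160b2 (0.44), Ash1l (0.44) and Shoc2 (0.50) the nearest. All points share library, depth and size factor.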

How the data were processed

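Per the labels' protocols, RNA of the purified cells was amplified to cDNA (Ovation Pico WTA System V2) and the reads passed through Trim Galore with cutadapt (kept from 20 nt), STAR on GRCm38 (single mapping location required) and HTSeq, then DESeq2 for normalization, with genes dropped unless some library had at least 10 reads. For these tools versions are not given in the sources at hand. The values deposited by the authors are a signal, the normalized count per gene and library, over 15223 genes. From their own comparisons the authors deposited log2 fold changes, a test score that is not printed here, and p-values with their adjusted form. Column names give another day than the labels for the day 12 groups, and the labels were followed.

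Each deposited column held whole multiples of 1 step, so division by it gave whole read counts for 100% of values within 0.001. In the main test limma 3.58.1 (R 4.3.3) with a trended variance was applied to log2(value + 1), using only the 2 groups concerned; p-values were adjusted by Benjamini-Hochberg across 15223 genes, at a threshold of 0.05. This scale understates changes of low genes. Run on the recovered reads, edgeR 4.0.16 and DESeq2 1.42.0 each called 3 members in day 12 Sfrp2 against pre-MI, as limma did. Other alternatives were a pseudocount of 5, a mean of at least 10, all 11 c-Kit(+) libraries, TMM scaling, median centring, library weights, a replicate block and leaving out each library. Exon lengths came from GENCODE for GRCm38 (98.9% of genes). Exact Poisson intervals are at 95% and floors are 3 reads. The 7 listed members were named in every comparison, with up to 4 genes of smallest p per list. Members, lists and tests were chosen with earlier results of these data known. Python 3.11.15, pandas 2.3.3 and SciPy 1.17.1 were used. A library held by several of the 5 deposited comparison tables used had identical values in each, and the other deposited tables were not used here.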

Additional observations from a re-analysis of the deposited data

How the results depend on the processing

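The falls of Mef2a, Mef2c and Mef2d in Sfrp2 against pre-MI kept their direction in each alternative. At day 1 the count of called members, 1, was 0 with a pseudocount of 5, all 11 libraries, DESeq2, library weights and the replicate block, 4 with median centring and 0 to 0 leaving out 1 library; called genes, 3638, were 592 at a mean of at least 10, 895 with all 11 libraries, 942 by DESeq2, 10 with the block and 1996 to 3580 leaving out 1 library. With vehicle against pre-MI, members were 1 with all 11 libraries, 3 with library weights and 0 to 2 leaving out 1 library, and genes were 4245 and 8282 with these, 1907 by edgeR, 1075 by DESeq2, 87 with TMM, 1501 with the block and 0 to 6421 leaving out 1 library. With Sfrp2 against pre-MI, members were 5 with median centring and 2 to 4 leaving out 1 library. Genes there, 8768 of 15223, were 1673 of 3925 at a mean of at least 10 and 6620 to 8630 leaving out 1 library. Sfrp2 against vehicle gave 2185 genes with library weights and 0 to 0 leaving out 1 library.

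Of the recomputed member differences 32 changed sign, none of a MEF2 gene in Sfrp2 against pre-MI. With median centring, Gata4 was at -0.52 at day 1 and -0.59 with Sfrp2 and Gata6 at -0.24 and -1.46, against pre-MI, and Mef2a at -0.083 for Sfrp2 against vehicle. With vehicle against pre-MI, Gata6 was 0.24 (edgeR), 0.21 (DESeq2) and 0.32 (weights) and Mef2d 0.043 (DESeq2); leaving out 1 library they ranged from -0.94 to 0.56 and from -1.24 to 0.25. With Sfrp2 against pre-MI, Gata6 was -0.26 (edgeR and TMM) and -0.30 (weights), and -0.29 to 0.22 leaving out 1 library. For Sfrp2 against vehicle, weights gave Gata4 0.15, Gata6 -0.83 and Mef2c 0.19, edgeR gave Gata6 -0.30 and Mef2a -0.65, and DESeq2 gave -0.40 and -0.84. There, leaving out 1 library gave -1.22 to 0.36 for Gata4, -0.54 to 0.96 for Gata6, -0.49 to 0.088 for Tbx20, -0.57 to 1.00 for Mef2a and -0.28 to 0.081 for Mef2c. The cause was not tested.

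Pairing by replicate number was not seen, but the check cannot settle it. Deviations from group means of same-numbered libraries correlated at -0.039 to 0.024 with pre-MI, where other pairs lay at -0.035 to 0.040. Between Sfrp2 and vehicle they correlated at -0.139, -0.631 and -0.029, and did not all correlate best with their own number. In groups this small the deviations are tied to each other. With the replicate block Tbx5 in Sfrp2 against pre-MI, at 1.55, had a limma adjusted p of 0.0353, and no other member call was gained. Depth limits Gata4, Gata6 and Tbx5, which had 66, 69 and 111 reads over 11 libraries.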
